A study of Mus musculus with 7 samples.

Results

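The Gimap genes encode GTPases of immunity-associated proteins, a family of GTP-binding proteins of lymphocytes. The 8 members described here (Gimap1, Gimap3, Gimap4, Gimap5, Gimap6, Gimap7, Gimap8 and Gimap9) were found by symbol among the 16476 genes of the deposited table, and all 8 were present. They were chosen by name with their higher values in knockout than in control libraries already known, so these values are given as a description and were not tested. RNA came from bronchoalveolar lavage (BAL) cells, the cells washed out of the airspaces of the lung, of C57BL/6 mice given lipopolysaccharide (LPS) into the trachea 3 days before. The 4 control libraries came from LysM Cre mice, and the 3 knockout libraries from Netrin1loxp/loxp LysM Cre mice, so that both groups carry the Cre and both received LPS. LysM Cre is expressed from the lysozyme gene Lyz2, which is active in macrophages, monocytes and neutrophils, so the floxed netrin-1 gene Ntn1 is a target mainly in those cells. Neutrophils had been removed with antibodies before RNA was made. The labels used here state neither age nor sex, nor whether each library is a separate mouse. A p-value here therefore sets a difference against the spread of these 7 libraries, and that spread may be technical.

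GIMAP proteins are related in their GTPase domain to plant proteins of pathogen defence. Some members sit on lysosomal, mitochondrial, endoplasmic reticulum or vesicle membranes. In T, B and natural killer cells the family is known for effects on survival, quiescence and autophagy. Loss of GIMAP5 in rodents leaves few peripheral T cells, and some family members are also made by endothelial cells.

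The recovered reads per library ranged from 9903284 to 13353733. Pairs of libraries within a group differed by 8.63 to 35.5 in chi-square per gene, where sampling noise alone would give about 1, so each library was counted. Values are normalized counts, which are reads divided by a size factor for the library. Ntn1 was at 1.02, 3.91, 7.96 and 3.76 normalized counts in control replicates 1 to 4 and at 1.01, 0 and 0.903 in knockout replicates 1 to 3. Since 0 counted reads allow for up to 3 in a library (2.65 to 3.76 normalized counts), the targeted gene was near the limit of detection in both groups and checks the labels weakly. Lyz2 set 2 controls apart: it was at 76927 and 118780 normalized counts in control replicates 1 and 4, and between 721 and 1052 in the other 5 libraries. The member values are therefore also given with and without control replicates 1 and 4.

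All 8 members lie in 1 cluster of 123.6 kb on mouse chromosome 6 of the GRCm38 assembly, between positions 48647234 and 48770851. Gimap6 and Gimap3 lie on the minus strand and the other 6 on the plus strand. The exons of Gimap8, Gimap9, Gimap4, Gimap6 and Gimap3 overlap no other annotated gene. The exons of Gimap1 overlap other genes over 36.0% of their length, namely the antisense noncoding gene Gimap1os and the readthrough gene Gm28053, and the share on the same strand is 6.44%. For Gimap7 and Gimap5 the overlap with Gm28053 covers 3.48% and 3.69% of the exonic bases. Whether the authors' counting used strand is not stated in the labels, so the reads of Gimap1 and of its antisense partner cannot be told apart in these values. Gimap3 and Gimap5 are the only members that share any 50-base stretch of transcript. They share 190 such stretches, 7.52% of those of Gimap3 and 4.53% of those of Gimap5, so a small part of either gene's reads could be uncertain in origin.

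The 250 bases before the transcription start are shown for 4 members, since all 8 genes were higher together. These 4 were picked because their windows hold matches to the motifs of 3 families of lymphocyte factors. The sequences are from RefSeq (GRCm38.p6), written 5′ to 3′ on the strand of the gene, with motif matches in capitals. The motifs were searched on both strands and do not overlap in these windows. They are GGAAGT (the ETS family), TGTGGT (the RUNX family, ACCACA when read on the other strand) and GGTGTG (the T-box family).
Gimap1 (chr6:48738797-48739046, plus strand): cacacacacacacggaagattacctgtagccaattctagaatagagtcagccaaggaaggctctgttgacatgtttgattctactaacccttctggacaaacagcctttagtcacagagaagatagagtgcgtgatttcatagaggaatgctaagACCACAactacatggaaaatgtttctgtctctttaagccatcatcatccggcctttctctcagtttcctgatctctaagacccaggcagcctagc
Gimap5 (chr6:48745947-48746196, plus strand): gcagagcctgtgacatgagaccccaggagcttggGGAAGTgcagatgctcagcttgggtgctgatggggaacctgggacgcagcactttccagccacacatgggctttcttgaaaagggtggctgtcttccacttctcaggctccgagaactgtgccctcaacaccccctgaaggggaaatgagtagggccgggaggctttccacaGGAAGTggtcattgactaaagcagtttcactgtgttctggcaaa
Gimap6 (chr6:48708245-48708494, minus strand): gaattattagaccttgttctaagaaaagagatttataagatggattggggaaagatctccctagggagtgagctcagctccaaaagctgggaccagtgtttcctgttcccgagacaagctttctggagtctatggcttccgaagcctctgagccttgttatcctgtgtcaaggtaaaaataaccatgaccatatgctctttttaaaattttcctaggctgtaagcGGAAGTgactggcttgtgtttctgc
Gimap3 (chr6:48770852-48771101, minus strand): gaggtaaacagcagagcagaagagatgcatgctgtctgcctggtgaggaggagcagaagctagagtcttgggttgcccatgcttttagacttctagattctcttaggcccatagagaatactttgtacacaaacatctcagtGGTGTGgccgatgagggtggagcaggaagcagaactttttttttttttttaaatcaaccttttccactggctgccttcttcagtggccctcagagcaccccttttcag
Position −1 is the last base shown. Gimap5 has the ETS letters at positions −216 and −44, and Gimap6 has them at −25. The RUNX letters start at −95 of Gimap1 and are also present before Gimap4 and Gimap7. The T-box letters start at −108 of Gimap3 and are also present before Gimap8. Among 32851 windows of 250 bases before RefSeq starts, 19.7% hold the ETS letters, 14.0% the RUNX letters and 16.3% the T-box letters. CTTTGA (TCF and LEF) and CCACACCC (KLF) are in no member's window, and in 13.8% and 3.2% of all windows. TATAAA is in 12.4% of all windows and, among the members, before Gimap6. The Gimap9 window holds none of these 6 motifs. All 250 bases of the Gimap1 window lie in annotated exons of some gene, and the genes Gimap1os and Gm28053 both span it. A match is a description of the letters and not of binding.

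Every member was higher in knockout than in control BAL cells, by 1.67 times (Gimap8) to 2.40 times (Gimap1) in the ratio of group means. In each of the 8 genes the lowest knockout library was above the highest control library. The closest approach was in Gimap8, where that ratio was 1.24, and the widest gap was in Gimap1, where it was 1.98. Groups did not overlap in the same direction for 17.4% of the 12963 genes tested, and since the members were chosen on this contrast nothing is read from the comparison. The members' median difference was 0.97 on the log2(normalized count + 1) scale, beside 0.01 over all genes tested, and 645 genes (4.98%) had a larger difference than the smallest of the 8. In bulk RNA such as this, more cells of a type and more RNA per cell cannot be told apart.

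**Figure D1:**
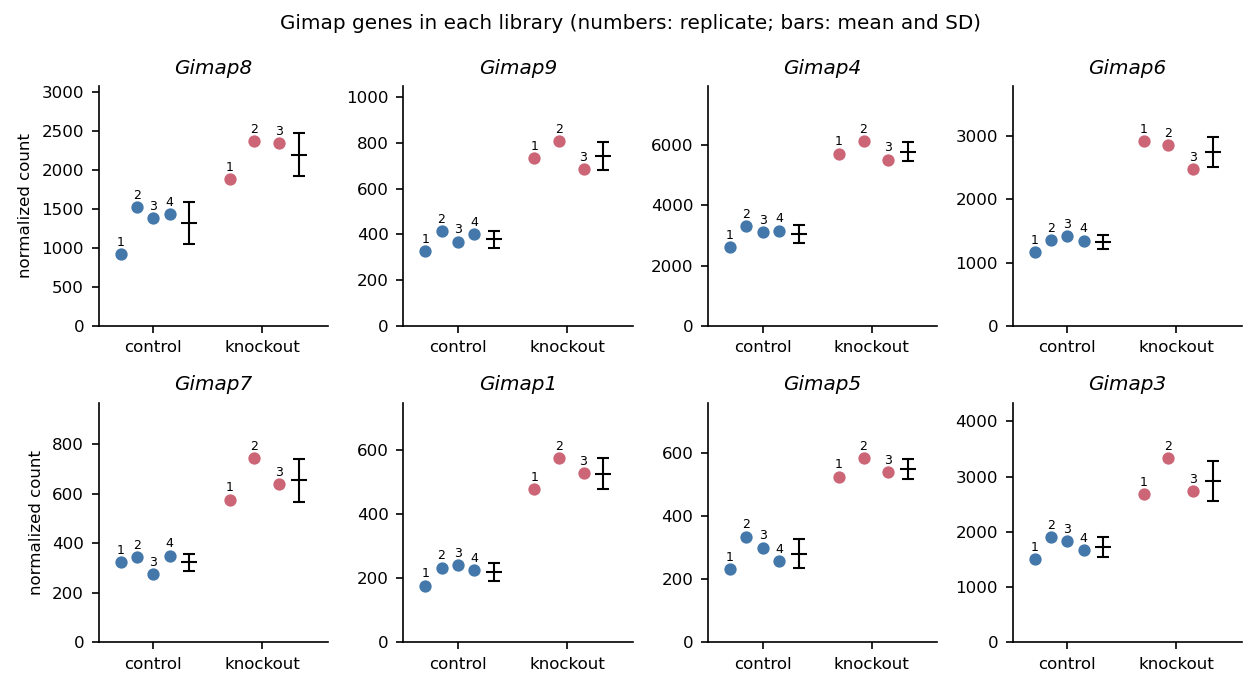
Normalized count (vertical axes, from 0) of each Gimap gene in the 4 control and 3 knockout libraries, 1 panel a gene in their order along chromosome 6. Points are libraries with the replicate number above, bars are mean and SD, and in each panel all 3 knockout points lie above all 4 control points.

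Gimap5, Gimap3 and Gimap1 are the members best known for lymphocyte survival. Gimap5 (ENSMUSG00000043505, chromosome 6, 48746197 to 48754210) encodes a lysosomal protein needed for the survival and quiescence of T cells. It was at 233, 335, 300.0 and 257 normalized counts in control replicates 1 to 4 and at 524, 584 and 539 in knockout replicates 1 to 3. The 3 knockout libraries lay close together and all above the controls, among which replicate 1 was lowest. The means were 281 ± 45.3 (SD, n = 4) and 549 ± 30.9 (SD, n = 3), a ratio of 1.95. The difference was 0.98 (SE 0.13) on the log2(normalized count + 1) scale.

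Gimap3 (ENSMUSG00000039264, 48764464 to 48770851) is the mouse paralog next to Gimap5, with a related role in T cell survival. It was at 1503, 1905, 1826 and 1669 normalized counts in the controls and 2685, 3338 and 2739 in the knockouts. Knockout replicate 2 was high, and the other two knockout libraries stood together above the highest control. The means were 1726 ± 178 (SD, n = 4) and 2921 ± 363 (SD, n = 3), a ratio of 1.69, with a log2 difference of 0.76 (SE 0.11). Gimap8 had the same log2 difference at this rounding, and these were the smallest in the family.

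Gimap1 (ENSMUSG00000090019, 48739054 to 48743795) is needed for the formation and upkeep of mature T and B cells. Its normalized counts were 177, 233, 241 and 226 in the controls and 477, 575 and 527 in the knockouts. All 3 knockout libraries lay far above the highest control, with the widest gap among the members. The means were 219 ± 28.9 (SD, n = 4) and 526 ± 49.2 (SD, n = 3), a ratio of 2.40 and a log2 difference of 1.27 (SE 0.12). Gimap1os, the antisense gene over part of its exons, is not a member and was looked at after its values were seen. It had means of 45.0 ± 16.2 (SD, n = 4) and 96.2 ± 7.82 (SD, n = 3) normalized counts and a log2 difference of 1.16 (SE 0.29, limma adjusted p = 0.0245). Since strand is not known, Gimap1os does not give a separate reading of the locus.

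Gimap4 and Gimap6 encode members tied to T cell turnover and to autophagy. Gimap4 (ENSMUSG00000054435, 48684549 to 48692060) speeds the death of T cells after an apoptotic signal. It was at 2615, 3317, 3110 and 3161 normalized counts in the controls and 5715, 6118 and 5510.5 in the knockouts. Both groups were tight, with coefficients of variation of 9.95% and 5.35%, and the 2 groups lay far apart. The means were 3051 ± 303.5 (SD, n = 4) and 5781 ± 309 (SD, n = 3), a ratio of 1.89 and a log2 difference of 0.93 (SE 0.09).

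Gimap6 (ENSMUSG00000047867, 48701582 to 48708225) encodes a binding partner of the autophagy protein GABARAPL2. It was at 1165, 1355, 1414 and 1348 normalized counts in the controls and 2913, 2854 and 2469.8 in the knockouts. Here knockout replicate 1 was the highest library, whereas replicate 2 was highest in the other 7 members. The means were 1321 ± 108 (SD, n = 4) and 2746 ± 241 (SD, n = 3), a ratio of 2.08 and a log2 difference of 1.06 (SE 0.09).

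Gimap7, Gimap8 and Gimap9 are less well studied. Gimap7 (ENSMUSG00000043931, 48718621 to 48724636) hydrolyses GTP when paired with itself or a relative. It was at 325, 343, 275 and 349.9 normalized counts in the controls and at 577, 745 and 639.6 in the knockouts. It was the only member with control replicate 3, not 1, as the lowest control, and its knockout libraries were the most spread (coefficient of variation 13.0%). The means were 323 ± 33.8 (SD, n = 4) and 654 ± 85.0 (SD, n = 3), a ratio of 2.02 and a log2 difference of 1.01 (SE 0.12).

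Gimap8 (ENSMUSG00000064262, 48647234 to 48660875) encodes the largest family protein, with repeated GTPase domains. It was at 920.2, 1522.5, 1386 and 1433 normalized counts in the controls and 1881, 2369 and 2344 in the knockouts. Control replicate 1 was well below the other controls and knockout replicate 1 below the other knockouts, so this gene varied most among the controls (coefficient of variation 20.5%). The means were 1315.5 ± 269.6 (SD, n = 4) and 2198 ± 275 (SD, n = 3), a ratio of 1.67 and a log2 difference of 0.76 (SE 0.17). Without control replicates 1 and 4 its log2 difference was 0.59.

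Gimap9 (ENSMUSG00000051124, 48676129 to 48679114) was at 328, 415, 368 and 401 normalized counts in the controls and 733, 807 and 687 in the knockouts. The controls spanned a narrow range, and all 3 knockout libraries lay above it. The means were 378 ± 38.7 (SD, n = 4) and 742 ± 60.6 (SD, n = 3), a ratio of 1.96 and a log2 difference of 0.97 (SE 0.10). The authors' deposited table gives log2 fold changes of the same sign for all 8 members, from 0.65 (Gimap8) to 1.15 (Gimap1).

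The libraries that were high or low in 1 member tended to be so in the others. Control replicate 1 was the lowest control for 7 of the 8 genes, and control replicate 2 was the highest for 5. Among the knockouts, replicate 2 was the highest for 7 genes, while replicate 1 was the lowest for 5 and replicate 3 for 3. With each gene centred on its own mean over the 7 libraries, the family stood on average at −0.64, −0.27, −0.37 and −0.37 log2 units in control replicates 1 to 4. The knockout replicates 1 to 3 stood at 0.47, 0.68 and 0.51. All 8 groups stayed apart without control replicates 1 and 4, with log2 differences of 0.59 to 1.14, and without control replicates 2 and 3, with 0.88 to 1.39.

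Per length, the order of the members was the same in both groups. Normalized counts per kb of exon in the controls averaged 1661 for Gimap4, 669.7 for Gimap3, 378 for Gimap6, 356 for Gimap8, 230.3 for Gimap9, 139 for Gimap7, 71.3 for Gimap1 and 67.7 for Gimap5. In the controls the library values of Gimap6 (333 to 404.5) and Gimap8 (249 to 411.5) overlapped, as did those of Gimap8 and Gimap9 (199.8 to 253) and those of Gimap1 (57.5 to 78.3) and Gimap5 (56.1 to 80.7). In the knockouts the averages were 3147 for Gimap4, 1133 for Gimap3, 785 for Gimap6, 594 for Gimap8, 452 for Gimap9, 281 for Gimap7, 171 for Gimap1 and 132 for Gimap5. There the ranges of neighbours in the order were separate, including Gimap1 (155 to 187) and Gimap5 (126 to 141). The exon overlap of Gimap1 with Gimap1os applies to its level per kb as well. Divided only by exonic bases that no other gene overlaps, the control means were 111 for Gimap1 and 70.3 for Gimap5. How close these genes stand in the controls thus depends on the length used.

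**Figure D2:**
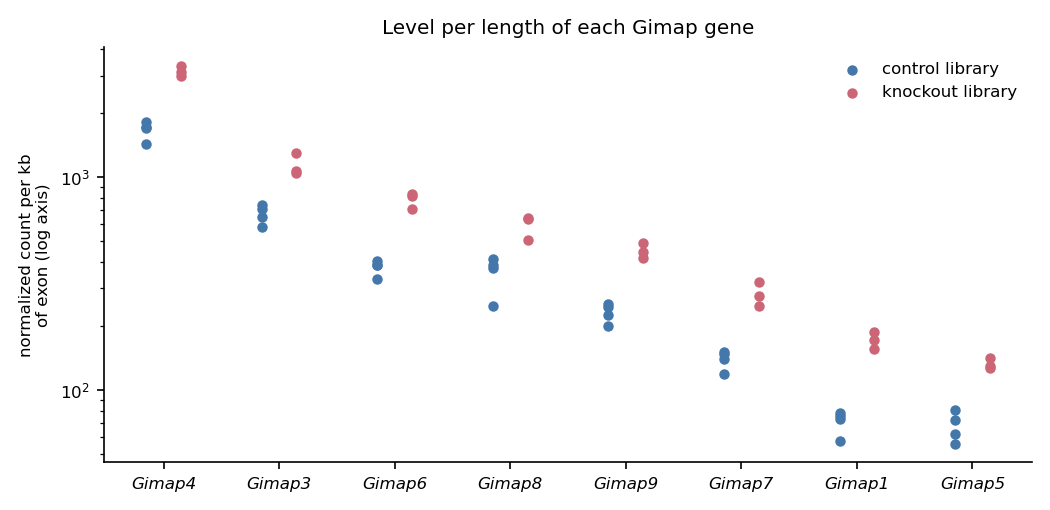
Normalized count per kb of annotated exon (log axis) of each Gimap gene, 1 point a library, ordered by the control mean. Gimap4 was highest and Gimap5 lowest in both groups, and neighbours in the order overlapped in the controls for 3 pairs.

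Gimap4 was the largest part of the family total in both groups. The 8 genes summed to 7266, 9426, 8919.7 and 8845 normalized counts in control replicates 1 to 4 and to 15505, 17389 and 15456 in knockout replicates 1 to 3. The sum was 8614 ± 935 (SD, n = 4) in the controls and 16117 ± 1102 (SD, n = 3) in the knockouts, a ratio of 1.87. Gimap4 made up 35.4% ± 0.513 of the sum in the controls and 35.9% ± 0.864 in the knockouts. The share of Gimap1 was 2.43% to 2.70% in the controls and 3.07% to 3.41% in the knockouts, with no overlap. The share of Gimap3 was 18.9% to 20.7% in the controls and 17.3% to 19.2% in the knockouts, which overlap.

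Set against lymphocyte markers, the family's place depended on which cells were taken as the measure. The 18 T cell markers summed to 8464, 8378, 8590.5 and 9867 normalized counts in the controls and 9989.9, 12780 and 9089.7 in the knockouts. These groups overlapped, and the ratio of means was 1.20. The 12 natural killer cell markers summed to 11374, 17884, 18470 and 16419 in the controls and 52973, 53865 and 58715 in the knockouts, a ratio of 3.44 with no overlap. Gzma, with means of 3118 and 16512, and Il2rb, with 4530 and 12406, were the largest parts of this sum. The log2 differences of the called markers ran from 1.29 (Klrd1) to 2.47 (Gzma). The sum therefore leans on a few genes and does not count cells. The Gimap sum was thus 0.980 ± 0.124 (SD, n = 4) times the T cell sum in the controls and 1.54 ± 0.170 (SD, n = 3) times in the knockouts, and the 2 groups did not overlap. Against the natural killer cell sum it was 0.547 ± 0.0658 (SD, n = 4) in the controls and 0.293 ± 0.0298 (SD, n = 3) in the knockouts, so this ratio was lower in the knockouts. Against both lists together it was 0.348 ± 0.0175 (SD, n = 4) and 0.245 ± 0.0165 (SD, n = 3). The members were chosen on this contrast, so nothing is read from the separation of the groups over the T cell sum. The part of natural killer and T cells in the Gimap values was not tested.

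**Figure D3:**
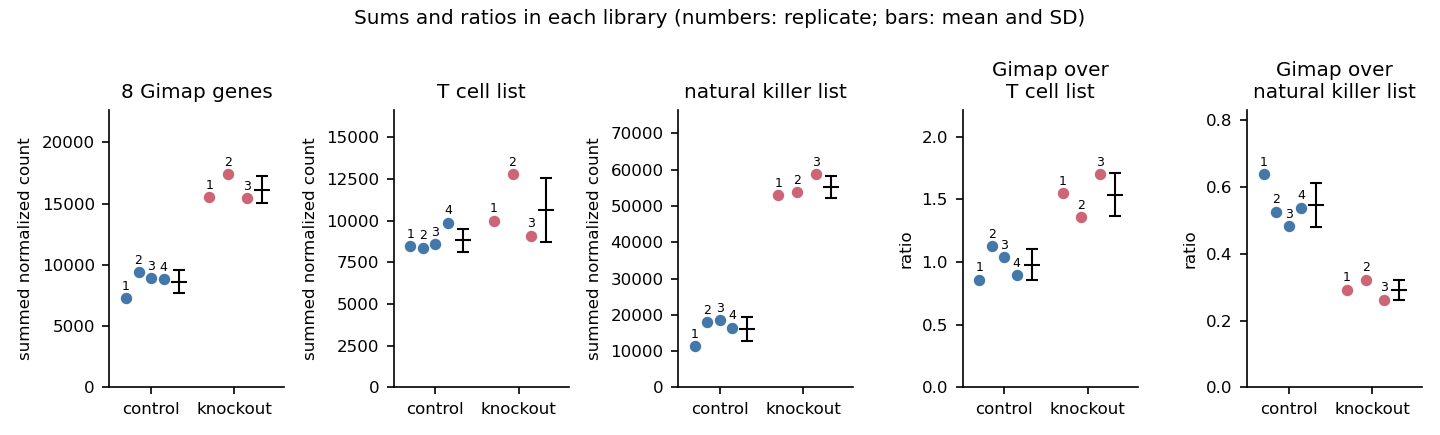
Summed normalized counts of the 8 Gimap genes, the T cell list and the natural killer cell list, and the Gimap sum over each list, in each library (points with replicate numbers, bars mean and SD, axes from 0). The Gimap sum was 1.87 times higher in the knockouts, its mean ratio to the T cell list was 0.980 in the controls and 1.54 in the knockouts, and to the natural killer cell list 0.547 and 0.293.

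Genes that mark the cells which could carry Gimap RNA were counted in the fit over all 12963 genes. That fit called 10.4% of genes higher and 11.3% lower in the knockouts (limma, Benjamini-Hochberg adjusted p under 0.05). Of the 12 natural killer cell markers, 11 were higher and 0 lower, with a median log2 difference of 1.73. Nkg7, a cytotoxic granule protein, averaged 1189 ± 71.7 normalized counts in the controls (SD, n = 4) and 3499.5 ± 171.5 in the knockouts (SD, n = 3), a log2 difference of 1.56 (SE 0.07, limma adjusted p = 3.5e-05). Il2rb, a subunit of the interleukin-2 and interleukin-15 receptors, went from 4529.6 ± 573 to 12406 ± 300.2, a log2 difference of 1.46 (SE 0.11, limma adjusted p = 0.000316). This list was known to be high in these knockout libraries when it was chosen, so its count is not independent evidence.

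Of the 18 T cell markers, 4 were higher and 0 lower, and the median log2 difference was 0.03. Trbc1, a constant segment of the T cell receptor beta chain, rose by 1.15 (SE 0.09, limma adjusted p = 0.000459) on the log2 scale. The other constant segments in the list did not pass: Trbc2 was at 0.27 (SE 0.13, limma adjusted p = 0.172) and Trac at 0.008 (SE 0.15, limma adjusted p = 0.975). Cd247, the zeta signalling chain that T and natural killer cells share, rose by 0.87 (SE 0.10, limma adjusted p = 0.00114). The 3 Cd3 genes, looked at after their values were seen, did not pass the test: their log2 differences were −0.08 (Cd3d), −0.17 (Cd3e) and −0.22 (Cd3g). At the median, the Gimap difference of 0.97 lay between those of the T cell and natural killer cell lists.

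Of the B cell markers, 10 of 12 were in the table and 6 passed the minimum, of which 1 was higher and 1 lower. Ighm, the IgM heavy chain, rose by 0.68 (SE 0.17, limma adjusted p = 0.0219) on the log2 scale, and Blk, a B cell kinase, fell by 0.79 (SE 0.24, limma adjusted p = 0.0437). Cd79a (means 12.9 and 14.5 normalized counts), Cd79b (21.1 and 19.0) and Ighd (10.5 and 13.6) were near the minimum of 10 and were not called. Of the 8 endothelial markers 3 were in the table, and Pecam1, which leukocytes also carry, rose by 1.13 (SE 0.14, limma adjusted p = 0.00156) while Kdr fell by 0.44 (SE 0.12, limma adjusted p = 0.0283). The defining endothelial gene Cdh5 was low, at 22.0 ± 8.34 (SD, n = 4) and 38.7 ± 4.98 (SD, n = 3) normalized counts. Its log2 difference was 0.84 (SE 0.28, limma adjusted p = 0.0638). The summed endothelial list ranged from 868 to 1187.5 in the controls and from 1540.3 to 1796 in the knockouts. Without Pecam1 it was Kdr and Cdh5 alone, and ranged from 353 to 469 in the controls and from 289.98 to 349.8 in the knockouts. Kdr, with means of 386 and 284 normalized counts, made up most of that sum. The turn in direction is therefore that of Kdr and not of Cdh5. The B cell sum ranged from 676 to 998 and from 862 to 1103, and the part of either cell type in the Gimap values was not tested. The Ighm call was lost without control replicate 2 or knockout replicate 2, the Blk call without any library but control replicate 3, and the Kdr call without control replicate 2 or 4 or knockout replicate 2 or 3.

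The labelled BAL cells held abundant macrophage RNA. The 12 monocyte and macrophage markers summed to between 102860 and 132920 normalized counts in the controls and between 108030 and 148590 in the knockouts. More than any other, Chil3 made up these sums, and without it they were between 47790 and 53934 in the controls and lower, between 42053 and 42752, in the knockouts. Of these 12 genes, 1 was higher (Ccr2, a chemokine receptor, log2 difference 0.48, SE 0.14, limma adjusted p = 0.0423) and 3 were lower. Cd68, a macrophage lysosomal protein, fell by 0.59 (SE 0.09, limma adjusted p = 0.00402) and Csf1r, the macrophage growth factor receptor, fell by 0.58 (SE 0.14, limma adjusted p = 0.0204) on the log2 scale. Neutrophil RNA differed between libraries although neutrophils had been removed. The 8 neutrophil markers summed to between 13176 and 13968 in the controls and to 59030 in knockout replicate 1, against 19308 and 20117 in knockout replicates 2 and 3. Of the 8, 4 were higher and 0 lower, among them S100a9 (log2 difference 1.61, SE 0.36, limma adjusted p = 0.0153) and Retnlg (log2 difference 1.75, SE 0.49, limma adjusted p = 0.0355). Leaving out any single control left 1 or 2 of these 4 calls. Without control replicates 1 and 4 there were 0, and also 0 without control replicates 2 and 3. The Ccr2 call was lost without any library but control replicate 4, and the Csf1r call without control replicate 4 or knockout replicate 2. Adgre1, the third gene called lower, lost its call without any library but control replicate 3 or knockout replicate 3. Without knockout replicate 1 the Gimap log2 differences were 0.81 to 1.34, and all 8 members still had groups that did not overlap.

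**Figure D4:**
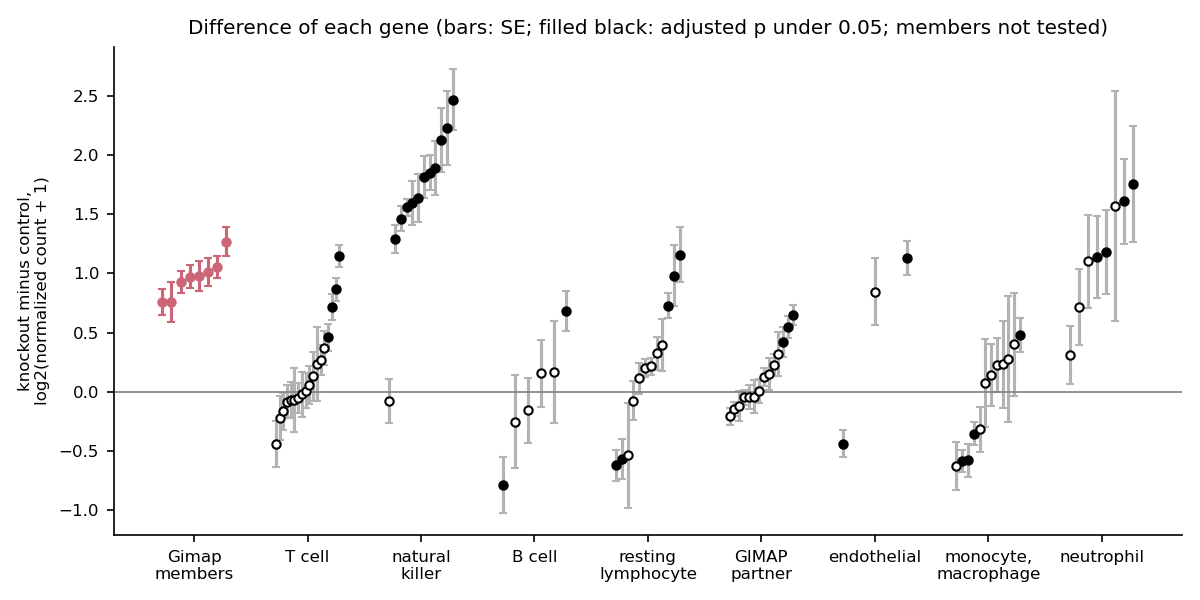
Difference between knockout and control on the log2(normalized count + 1) scale (vertical axis, bars SE) of the 8 Gimap genes and of each tested gene of 8 lists, 1 point a gene sorted within its list. Filled black points passed limma's adjusted p of 0.05 and open ones did not, and the Gimap points, which were not tested, lie between 0.76 and 1.27.

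Gimap RNA is known to be abundant in resting lymphocytes, and 12 genes of that state were looked at. In the fit 3 were higher and 2 lower, and the other 7 did not pass the test, with a median log2 difference of 0.21. Satb1, a chromatin organiser of T cells, rose by 0.73 (SE 0.11, limma adjusted p = 0.00284) on the log2 scale. Ccr7, the lymph node homing receptor, rose by 0.98 (SE 0.26, limma adjusted p = 0.0276) and was highest, at 2035 normalized counts, in knockout replicate 1, the library with the most neutrophil RNA. Il7r, the interleukin-7 receptor, fell by 0.62 (SE 0.13, limma adjusted p = 0.0127), and S1pr1, which guides exit from lymphoid tissue, fell by 0.57 (SE 0.17, limma adjusted p = 0.0418). The Ccr7 call was lost without any library but control replicate 3 or knockout replicate 3, and the S1pr1 call without any but knockout replicate 2. Without control replicates 1 and 4 the list had 1 higher and 1 lower.

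The proteins reported to work with GIMAPs (the BCL2 family of apoptosis regulators, the autophagy proteins of the GABARAP and LC3 families, and GSK3 and mTOR signalling) gave 3 higher and 0 lower of 14 genes, with a median log2 difference of 0.07. Bcl2l11, which encodes the death-promoting protein BIM, averaged 2766 ± 258 normalized counts in the controls (SD, n = 4) and 4325 ± 64.0 in the knockouts (SD, n = 3), a log2 difference of 0.65 (SE 0.08, limma adjusted p = 0.00178). Bcl2, the survival factor that BIM binds, went from 787 ± 81.7 (SD, n = 4) to 1148 ± 82.3 (SD, n = 3), a log2 difference of 0.55 (SE 0.09, limma adjusted p = 0.00532). The third was Gabarapl2, which encodes the protein that GIMAP6 binds. It was at 415, 411, 397 and 399 normalized counts in the controls and 680.4, 514 and 457 in the knockouts, so all 3 knockouts were higher, replicate 1 most of all. Its log2 difference was 0.42 (SE 0.12, limma adjusted p = 0.0425), and the call was lost without any library but knockout replicate 3. None of the 14 reached the smallest Gimap difference of 0.76.

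Among the other protein-coding genes in and beside the cluster, calls were mostly lower. Of 22 annotated protein-coding genes within 500 kb that are not members, 14 were in the table and 12 passed the minimum, of which 1 was higher, 4 were lower and 7 did not pass the test. The 7 include the readthrough gene Gm28053, which lies within the cluster and shares exons with members. Upstream, the nearest tested gene Zfp775, a zinc finger gene, had a log2 difference of 0.47 (SE 0.23, limma adjusted p = 0.172), and Repin1, a replication initiator protein, −0.04 (SE 0.17, limma adjusted p = 0.881). Lrrc61 was the gene called higher, at 0.50 (SE 0.16, limma adjusted p = 0.0484), a call that was lost without any 1 of the 7 libraries, and edgeR and DESeq2 called 0 neighbours higher. Zfp467 fell by 0.89 (SE 0.14, limma adjusted p = 0.00367), and Krba1 was at −0.10 (SE 0.27, limma adjusted p = 0.808).

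At positions above Gimap3 lie the membrane channel genes Tmem176b and Tmem176a. Their log2 differences were 0.34 (SE 0.20, limma adjusted p = 0.241) and 0.31 (SE 0.20, limma adjusted p = 0.288). Farther out, Gpnmb, a glycoprotein of macrophages, fell by 1.04 (SE 0.14, limma adjusted p = 0.00178) on the log2 scale, with means of 10761 ± 804 normalized counts in the controls (SD, n = 4) and 5290.6 ± 1064.5 in the knockouts (SD, n = 3). The RNA-binding protein gene Igf2bp3 fell by 1.36 (SE 0.27, limma adjusted p = 0.00933) and the splicing factor gene Tra2a fell by 0.48 (SE 0.14, limma adjusted p = 0.0367), the latter a call lost without control replicate 1, 2 or 4 or knockout replicate 1 or 2. Malsu1 was at −0.12 (SE 0.11, limma adjusted p = 0.467). Igf2bp3 missed the threshold too without control replicates 1 and 4 (limma adjusted p = 0.0509) and without control replicates 2 and 3 (limma adjusted p = 0.0891). Within the cluster, the readthrough gene Gm28053, which shares exons with Gimap7, Gimap1 and Gimap5, had means of 16.3 ± 4.71 (SD, n = 4) and 31.2 ± 7.27 (SD, n = 3) normalized counts and a log2 difference of 0.92 (SE 0.29, limma adjusted p = 0.0526).

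**Figure D5:**
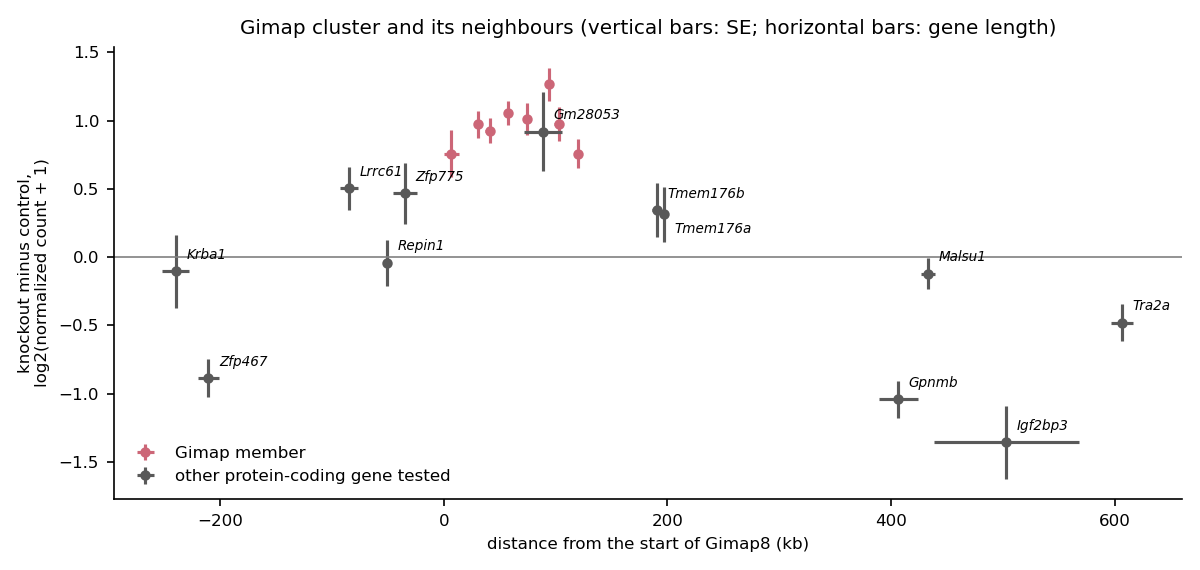
Difference between knockout and control on the log2(normalized count + 1) scale (vertical axis, vertical bars SE) against distance from the start of Gimap8 in kb, with horizontal bars for gene length. The 8 members lie between 0.76 and 1.27, and of the other protein-coding genes Gm28053, which lies within the cluster, is the only one above the 0.50 of Lrrc61.

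The genes whose pattern over the 7 libraries was most like the family's were found by the mean absolute difference from the members' mean centred profile, in log2 units over the 7 libraries. The 5 nearest genes that are not members were Samd3 (0.0411), Smagp (0.0420), Ets1 (0.0463), Rhof (0.0465) and Nedd4 (0.0519). Ets1, a transcription factor of lymphocytes, was at 3048, 3540.2, 3758 and 3718 normalized counts in the controls and 6250.3, 7383 and 6582 in the knockouts. Rhof was at 318, 379, 349.6 and 365 in the controls and 705, 756 and 662 in the knockouts. In both, control replicate 1 was lowest and knockout replicate 2 highest, the order seen in most Gimap genes. Among the members, Gimap4 (0.0317) and Gimap9 (0.0411) lay nearest to the family profile and Gimap1 (0.147) and Gimap8 (0.158) farthest. Likeness here is over the libraries on which the members were chosen, and so includes the difference between the groups.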

How the data were processed

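RNA of 7 BAL cell libraries was sequenced, 4 control and 3 knockout as their titles name them. Trizol RNA went into KAPA mRNA libraries, per the labels' protocols. The submitters' processing notes name STAR 2.5.3a, cutadapt 1.15, DESeq2 and HTSeq with the mouse build GRCm38 (mm10). Versions of DESeq2 and HTSeq, the strand setting and the annotation are not stated there. The authors deposited a signal column per library, read counts divided by a size factor, in 1 table of 16476 genes. The same table holds, per the file headers, the authors' log2 fold change, its standard error and a statistic as a score, and a p-value, raw and adjusted. Their p-values were not used. All values were whole multiples of 1 read within 0.01, so whole reads were recovered (100% of values).

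The 12963 genes whose normalized counts averaged at least 10 were fitted with limma 3.58.1 in R 4.3.3 (eBayes with trend) on log2(normalized count + 1), a scale on which changes of low genes are understated. Benjamini-Hochberg adjustment ran over all 12963 genes, with calls under an adjusted p of 0.05. The fit was tested on simulated data. edgeR 4.0.16 and DESeq2 1.42.0 on recovered reads, other scalings, pseudocounts (0.5 and 5), minimums (none and 50), replicate blocks and left-out libraries were the alternatives. Gene positions and lengths came from GENCODE on GRCm38, and sequences from RefSeq (GRCm38.p6).

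The members and the 8 lists were chosen with earlier results of these data known. Named were the 8 members, the protein-coding genes within 500 kb that passed the minimum, up to 2 called genes per direction and list with the smallest p, and the 5 genes nearest to the family profile; 1 gene that this rule names is not reported here. Gimap1os, Cdh5, Ccr7, Gabarapl2, Adgre1, Chil3, Gzma, Klrd1, Trac, Trbc2, Cd79a, Cd79b, Ighd and the Cd3 genes were added after their values were seen.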

Additional observations from a re-analysis of the deposited data

Results flagged for a closer look

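In 47 sets of 4 control values (the members, neighbours and marker lists, some of which share genes), 3 held 1 library far from the other 3 by Dixon's test. Chance alone flags about 1 in 20 sets. None was a Gimap gene. Control replicate 1 stood apart in Krba1, a neighbour of the cluster, at 36.6 normalized counts against 75.3 to 79.0 in the other controls. Control replicate 1 was also apart in the sum of the T cell and natural killer cell lists, at 19838 against 26262 to 27061. Control replicate 4 stood apart in the T cell list, at 9867 against 8378 to 8590.5. Control replicate 1 was the lowest control for 7 of the 8 Gimap genes as well, and it is 1 of the 2 controls with high Lyz2. The other, control replicate 4, had a family average of −0.37 log2 units, the same as control replicate 3, where Lyz2 was low. A link to Lyz2 was not tested.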

How the results depend on the processing

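The 8 member differences were recomputed under 19 alternatives. All 152 values were above 0, from 0.59 (Gimap8, without control replicates 1 and 4) to 1.39 (Gimap1, without control replicates 2 and 3). Each lay within 1 SD of the value reported. That SD is the gene's spread between libraries within groups, not the SE of the difference. Changing the minimum cannot alter a member's difference. The replicate blocks gave the same member values as leaving out control replicate 4 or control replicate 1. All alternatives reuse libraries on which the members were chosen. The members' median of 0.97 ranged from 0.90 to 1.03 with 1 library left out. It was 0.88 without control replicates 1 and 4 and 1.02 without control replicates 2 and 3. The natural killer cell count of 11 higher was the same under every alternative. The Gimap level per marker, 1.57 times higher in the knockouts over the T cell sum, turned to 0.536 over the natural killer cell sum and 0.704 over both.

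The genes called over the whole table were 1352 higher and 1461 lower. They became 624 and 567 without control replicates 1 and 4, and 622 and 620 without control replicates 2 and 3. With 1 library left out they ranged from 695 to 1172 higher and from 820 to 1303 lower, the fewest without knockout replicate 2. edgeR called 1365 and 1497 and DESeq2 1414 and 1611.

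Labels give replicate numbers in the title and in the description, and neither pairs the libraries. The deviations of same-numbered libraries correlated at −0.229, −0.0253 and −0.188 (title) and at −0.0768, −0.285 and 0.0762 (description). With the title number as a replicate block 424 genes were higher and 382 lower, and with the description number 591 and 605. The Gimap median was 0.97 and 0.90 in these fits. These medians repeat those without control replicate 4 (title) and without control replicate 1 (description). That control has no knockout of its number, so it drops out of the difference. In the resting lymphocyte list the title block left 1 higher and 0 lower and the description block 1 lower. Among the neighbours both blocks left 0 higher, with 1 lower (title) and 2 lower (description).

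The resting lymphocyte list had 1 lower under library size scaling, 1 higher and 1 lower without control replicates 1 and 4, and 0 lower without control replicates 2 and 3. With 1 library left out it had 2 to 4 higher and 1 to 2 lower, the T cell list 3 to 5 higher and 0 to 2 lower, and the GIMAP partner list 2 to 3 higher and 0 to 1 lower. The neighbours had 2 higher with a pseudocount of 5. They had 0 higher with no minimum, in edgeR, in DESeq2 and without either pair of controls, and 2 lower without either pair. With 1 library left out they had 0 higher and 3 to 4 lower. The causes were not tested. Depth does not limit the members, whose lowest value was 174 reads.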
